A study of Mus musculus with 3 samples.

Results

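Mitosis divides the duplicated chromosomes of a cell between its daughters. Cyclin-dependent kinase 1 with its cyclins starts the process, Polo and Aurora kinases build the spindle, kinetochores tie chromosomes to spindle fibres, and the spindle assembly checkpoint holds the cell back until every chromosome is attached. The anaphase-promoting complex then marks cyclins and securin for destruction, and the cell is cut apart at the midzone. Most of these genes are transcribed in late S, G2 and M phase, so their messenger RNA is known as a sign of cycling cells. T cells at rest hold little of it and gain it within days of activation.

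The genes described here are 48 mouse genes of mitosis and the spindle, out of 20886 genes that could be matched to a probe. They come from a list of names that uses no measured values, though it was chosen with earlier results of these data known. They were read on 3 arrays of activated CD4+ T cells from female C57BL/6 mice of 8 weeks, after 2 days of stimulation. The groups are Rbpj-/-, Dll1-/- and wild type (WT), with 1 array each. Rbpj encodes the DNA-binding factor through which Notch receptors act on transcription, and Dll1 encodes a Notch ligand. Which cells carried each deletion, what promoter or Cre drove it, and how many animals gave each RNA cannot be read from the labels, which name nothing but the strain, sex, age and stimulation as shared by the groups. Labelled RNA was made from 20 ng of total RNA and read in 1 colour (Cy3).

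With 1 array in each group the differences below have no replicate check, so no p-value is given and none of them can be read as a difference between genotypes beyond these 3 RNAs. In such whole-culture RNA, fewer dividing cells and less RNA for each dividing cell cannot be told apart. A level is the log2 processed signal with the 75th percentile of the same array subtracted, so 0 is the 75th percentile and a difference of 1 is 2-fold. Levels are compared between arrays for 1 gene and never between genes, because probes differ in brightness. The error printed after a difference is the standard error (SE) that the scanner software gives to the signals, which covers measurement within an array only. For a gene with several probes the SEs of its probes were combined as if independent, so the SE shrinks as probes are added. Disagreement between probes is not part of it, and a gene with several probes can pass 2 SE at a smaller difference.

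The share of probes well above background was 47.3% on the Rbpj-/- array, 50.1% on the Dll1-/- array and 46.6% on the WT array. Of the T helper markers all 7 (Cd3e, Cd3d, Cd3g, Cd4, Cd28, Lck and Cd5) were well above background on every array. Cd3e stood at 6.68 in Rbpj-/-, 6.80 in Dll1-/- and 6.75 in WT, and Cd4 at 2.31, 1.89 and 1.93 on the same arrays. Of the B-cell markers, Cd79b stood at 2.88 in Rbpj-/-, 3.41 in Dll1-/- and 3.41 in WT, and Ms4a1 at 1.75, 2.50 and 2.48 on the same arrays. Cd79a ran the other way, at -2.04 in Rbpj-/-, -3.17 in Dll1-/- and -3.13 in WT, and was not well above background in WT. Pax5, at -3.65, -3.28 and -3.81, was well above background in Dll1-/- only. The summed CD8 T markers were 0.798, 1.21 and 1.23 times the 75th percentile, the natural killer markers 0.515, 0.778 and 0.380 times, and the myeloid markers 6.77, 5.64 and 6.07 times, in the same order of arrays. Of the dendritic markers Itgax, Flt3 and Zbtb46 were at background on every array. Siglech, with 1 probe, made up nearly all of that list's summed signal of 612 times in Rbpj-/-, 597 times in Dll1-/- and 539 times in WT. The part that B or CD8 T cells play in the values below was not tested. Rbpj itself stood at 0.53 in Rbpj-/-, 1.32 in Dll1-/- and 1.04 in WT, while the probe for Dll1 stayed at background throughout. The position of these probes with respect to the deletions is unknown, so neither gene checks a label.

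All 48 genes had a probe, 65 probes in all. Of these genes 45 were well above background on at least 1 array and 41 on all 3 arrays. Cenpf was so in WT only, Nek2 in Dll1-/- only, and Kif18b and Kif2c in Dll1-/- and WT. Aurkb, Cdc25c and Ttk were at background on every array, so no difference is given for them.

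In Rbpj-/- cells most of the measured mitosis genes stood below WT by a modest amount. Of the 41 genes measured on both arrays 38 were lower. The median log2 difference was -0.39, against -0.07 over all 11592 genes measured on both arrays. Over all genes, 60.2% were lower by any amount. Lower by at least 0.32 on the log2 scale, the smallest step counted, were 26 of the 41 mitosis genes, where 18.7% of all genes were. At least 1.5-fold lower were 7 of the 41, where 6.97% of all genes were, and 1 was at least 1.5-fold higher, where 4.86% of all genes were. The count at 1.5-fold depended on the processing. It was 0 of 41 after normexp with quantile normalization (2.36% of all genes), 14 of 48 without a filter on dim probes (8.09%), 19 of 41 with arrays scaled to their median (12.5%) and 38 of 41 with arrays scaled to the E1A spike-in probes (79.5%). On the 75th-percentile scale, none of the 41 was 2-fold apart, against 2.18% of all genes lower and 1.38% higher. Relative to the all-gene median the members' median was -0.32. Of the 41 differences 20, with the higher Cdc25b among them, were larger than 2 software SE. The share of all genes past 2 software SE was not counted, so the 20 cannot be set against it.

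**Figure D1:**
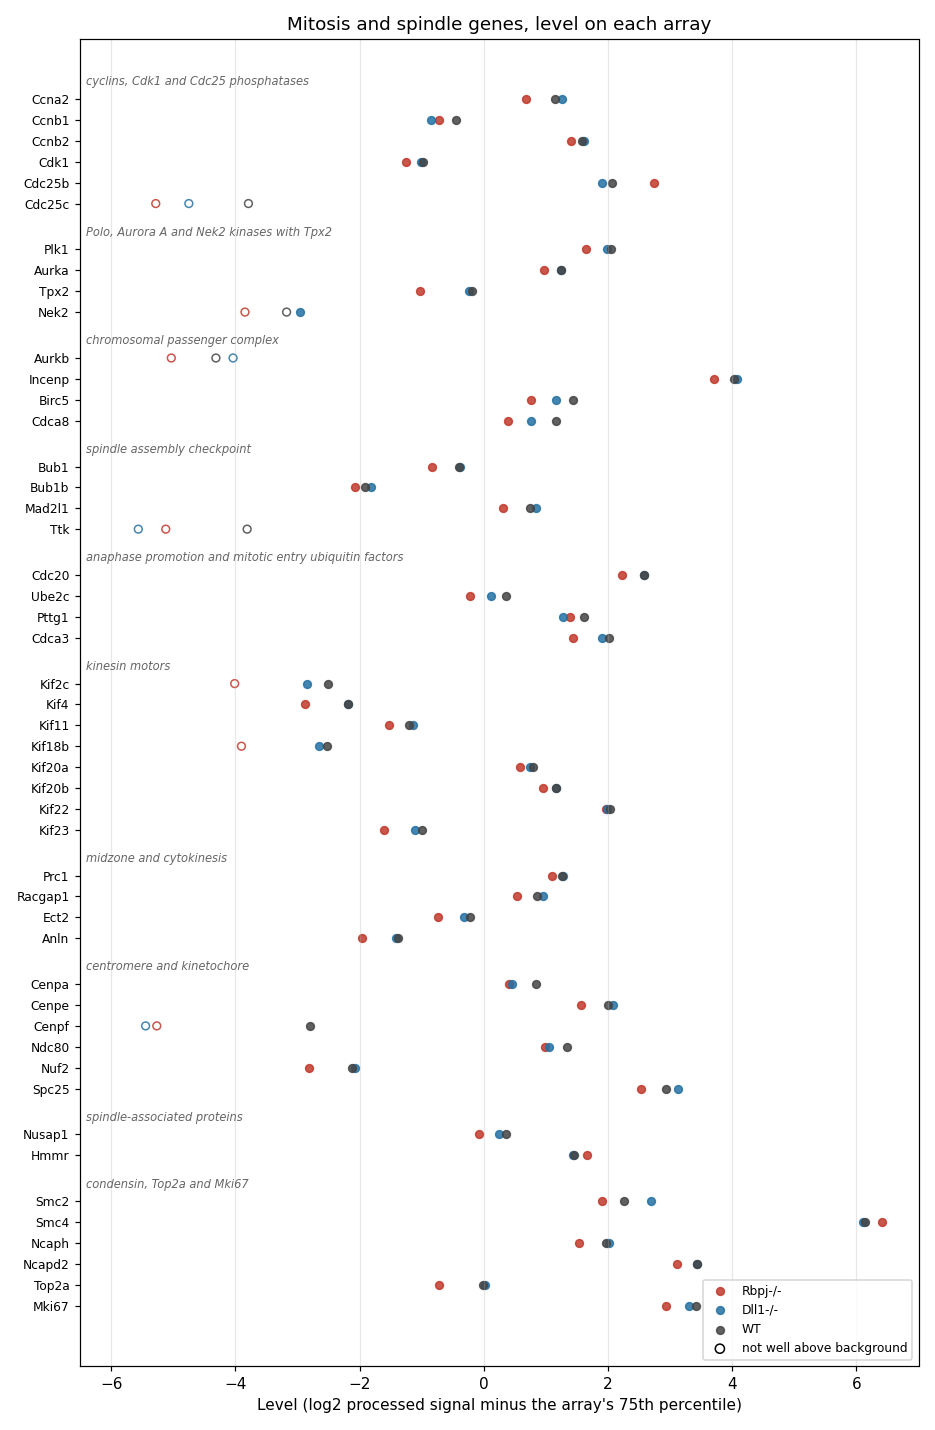
Level of each of the 48 genes on the Rbpj-/- (red), Dll1-/- (blue) and WT (grey) arrays, in log2 units from the array's 75th percentile, grouped by role. Open circles were not well above background. The red point lies left of the grey one for 38 of the 41 genes measured on both arrays, while the blue point lies close to the grey one for most.

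Among the regulators that start mitosis, 4 of the 5 measured genes were lower in Rbpj-/- cells than in WT. Ccna2, the cyclin of S and G2 phase, stood at 0.68 in Rbpj-/-, 1.26 in Dll1-/- and 1.15 in WT, a difference of -0.46 ± 0.21 between Rbpj-/- and WT. Ccnb2, a mitotic cyclin, stood at 1.40 in Rbpj-/-, 1.60 in Dll1-/- and 1.59 in WT, which is -0.18 ± 0.20 between Rbpj-/- and WT and no more than the SE. The exception of the group was Cdc25b, the phosphatase that removes the inhibitory phosphates from Cdk1. It stood at 2.73 in Rbpj-/-, 1.90 in Dll1-/- and 2.07 in WT, with the Rbpj-/- array alone at the top. The difference between Rbpj-/- and WT was 0.66 ± 0.20, or 1.58-fold higher. It was -0.11 when the arrays were scaled to the median of the E1A spike-in probes and 0.08 with the mean of their spots.

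For the mitotic kinase Cdk1 and its partner cyclin Ccnb1 the probes did not give 1 answer. The Cdk1 mean over 2 probes was -0.29 ± 0.21 for Rbpj-/- against WT, made of -0.55 from its brighter probe and -0.02 from its dimmer one. For Ccnb1 the mean was -0.27 ± 0.18, made of -0.01 from the brighter probe and -0.53 from the dimmer one. The brighter Ccnb1 probe read 0.85 in Rbpj-/-, 0.87 in Dll1-/- and 0.87 in WT, so by that probe the 3 arrays did not differ by more than 0.02. The means of these 2 genes rest on probes that disagree.

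All 3 measured genes of the Polo and Aurora A group were lower in Rbpj-/- than in WT. Tpx2, which activates Aurora A on spindle fibres, had the lowest difference of the 41 members measured on both arrays, with Kif2c, Kif18b and Cenpf known only as bounds that may lie lower. It stood at -1.02 in Rbpj-/-, -0.24 in Dll1-/- and -0.19 in WT, which is -0.83 ± 0.22 between Rbpj-/- and WT, or 1.78-fold lower. The Dll1-/- and WT arrays lay together and the Rbpj-/- array apart. Plk1, the Polo kinase of spindle assembly and mitotic entry, stood at 1.65 in Rbpj-/-, 1.98 in Dll1-/- and 2.04 in WT, a difference of -0.39 ± 0.20 between Rbpj-/- and WT. Aurka, the Aurora kinase of the spindle poles, stood at 0.97 in Rbpj-/- and 1.24 in Dll1-/-, with -0.28 ± 0.21 for Rbpj-/- against WT and -0.01 ± 0.20 for Dll1-/- against WT. Nek2, a kinase that separates centrosomes, was well above background in Dll1-/- cells only.

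The chromosomal passenger complex, which corrects wrong attachments and steers cytokinesis, had the lowest middle value of the 10 role groups, with a median of -0.68 over its 3 measured genes. Cdca8 (borealin) stood at 0.39 in Rbpj-/-, 0.77 in Dll1-/- and 1.17 in WT. Its difference between Rbpj-/- and WT was -0.78 ± 0.16, or 1.72-fold lower, with -1.02 and -0.54 from its 2 probes. Birc5 (survivin) stood at 0.76 in Rbpj-/-, 1.16 in Dll1-/- and 1.44 in WT. All 3 of its probes gave nearly the same difference between Rbpj-/- and WT, from -0.71 to -0.65, with a mean of -0.68 ± 0.12. Incenp, the scaffold of the complex, stood at 3.71 in Rbpj-/-, 4.08 in Dll1-/- and 4.03 in WT, a difference of -0.32 ± 0.14 between Rbpj-/- and WT. In both Cdca8 and Birc5 the Dll1-/- array lay between the others, more than 1 software SE from each. Aurkb, the kinase of the complex, was too dim to be compared.

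All 3 measured genes of the spindle assembly checkpoint were lower in Rbpj-/- than in WT. The Bub1 probe, for a checkpoint kinase of the kinetochore, was printed 10 times on each array and so gives a spread within arrays. Its spots averaged -0.84 ± 0.08 in Rbpj-/-, -0.38 ± 0.05 in Dll1-/- and -0.40 ± 0.08 in WT (SD over spots not marked as outliers). Paired by position, 7 spots gave a mean of -0.42 for Rbpj-/- against WT, with an SD over spots of 0.06. They ran from -0.50 to -0.35, so none of the 7 read higher in Rbpj-/-. The software SE of the Bub1 difference was 0.22. Bub1b, which encodes the BubR1 protein of the checkpoint complex, stood at -2.07 in Rbpj-/-, -1.82 in Dll1-/- and -1.92 in WT, a difference of -0.15 ± 0.27 between Rbpj-/- and WT that is smaller than its SE. Mad2l1, whose product binds and holds Cdc20, had a mean difference of -0.43 ± 0.15 but its 3 probes ran from -0.93 to 0.03.

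All 4 genes of anaphase promotion and mitotic entry were lower in Rbpj-/- than in WT. Ube2c, the ubiquitin-conjugating enzyme of the anaphase-promoting complex, stood at -0.23 in Rbpj-/-, 0.12 in Dll1-/- and 0.35 in WT, a difference of -0.58 ± 0.15 between Rbpj-/- and WT. Cdca3, which promotes mitotic entry through the breakdown of Wee1, stood at 1.44 in Rbpj-/-, 1.91 in Dll1-/- and 2.02 in WT, also -0.58 between Rbpj-/- and WT, with an SE of 0.20. Cdc20, which directs the complex to its targets, stood at 2.23 in Rbpj-/-, 2.58 in Dll1-/- and 2.57 in WT, a difference of -0.35 ± 0.20. For these 3 genes the Rbpj-/- array was the lowest. Pttg1 (securin), which holds separase inactive until anaphase, differed in that its Dll1-/- array was the lowest, with 1.39 in Rbpj-/-, 1.27 in Dll1-/- and 1.62 in WT.

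The kinesins, motors that move along or take apart spindle fibres, were lower in Rbpj-/- than in WT for all 6 that were measured on both arrays, though with a median of only -0.27. Kif4, which binds chromosomes and organises the midzone, stood at -2.89 in Rbpj-/-, -2.18 in Dll1-/- and -2.20 in WT, a difference of -0.69 ± 0.37 between Rbpj-/- and WT. Kif23, the motor of the centralspindlin complex, stood at -1.60 in Rbpj-/-, -1.11 in Dll1-/- and -0.99 in WT, a difference of -0.61 ± 0.24. The Kif4 signal was dim, as its SE shows. Kif11, which pushes the spindle poles apart, had -0.33 ± 0.24 for Rbpj-/- against WT. Kif20a and Kif20b, motors needed for cytokinesis, had -0.22 and -0.20, each with an SE of 0.21. Kif22, a chromosome-arm motor, had -0.07 ± 0.20, which is the all-gene median, and turned to 0.01 and 0.02 after the quantile-based normalizations. Kif2c and Kif18b, which shorten spindle fibres, were not well above background in Rbpj-/-. Against WT the bound was 1.57-fold lower in Rbpj-/- for Kif2c and 1.55-fold lower for Kif18b. These bounds leave out the SE of the WT reading, 0.24 log2 for each gene.

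Of the genes of the midzone and cytokinesis, all 4 were lower in Rbpj-/- than in WT. Anln (anillin), a scaffold of the cleavage furrow, stood at -1.96 in Rbpj-/-, -1.41 in Dll1-/- and -1.38 in WT, a difference of -0.58 ± 0.26 between Rbpj-/- and WT. Ect2, the exchange factor that switches on RhoA at the furrow, stood at -0.75 in Rbpj-/-, -0.33 in Dll1-/- and -0.23 in WT, a difference of -0.52 ± 0.22. Racgap1, the partner of Kif23 in centralspindlin, had -0.32 ± 0.15, with the same value from both of its probes. Prc1, which bundles midzone fibres, had -0.16 ± 0.21, within its SE.

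All 5 measured genes of the centromere and kinetochore were lower in Rbpj-/- than in WT by at least 0.32. Nuf2, Ndc80 and Spc25 encode subunits of the NDC80 complex, which grips spindle fibres. Nuf2 stood at -2.81 in Rbpj-/-, -2.07 in Dll1-/- and -2.13 in WT, a difference of -0.69 ± 0.35 between Rbpj-/- and WT. Spc25 stood at 2.53 in Rbpj-/-, 3.13 in Dll1-/- and 2.93 in WT, a difference of -0.40 ± 0.20. Ndc80 stood at 0.99 in Rbpj-/-, 1.06 in Dll1-/- and 1.34 in WT, a difference of -0.35 ± 0.21. The Dll1-/- array thus lay beside WT for Nuf2, above it for Spc25 and near Rbpj-/- for Ndc80. Cenpe, a kinesin-like motor that brings chromosomes to the spindle equator, had -0.44 ± 0.20 for Rbpj-/- against WT. Cenpa, the histone variant that marks centromeres, stood at 0.41 in Rbpj-/-, 0.45 in Dll1-/- and 0.84 in WT, with both knockout arrays together. Cenpf, a large protein of the outer kinetochore, was well above background in WT only, where its reading had an SE of 0.30. Its bound was 1.29-fold lower in Rbpj-/- and 1.64-fold lower in Dll1-/-, each against WT. These bounds leave out that SE, which is nearly as large as the Rbpj-/- bound of -0.36 log2.

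The remaining members bind spindle fibres or shape chromosomes. Of the 2 spindle-associated genes, Nusap1 stood at -0.09 in Rbpj-/-, 0.25 in Dll1-/- and 0.36 in WT, a difference of -0.45 ± 0.21 between Rbpj-/- and WT. Hmmr, a hyaluronan receptor that also acts at spindle poles, stood at 1.67 in Rbpj-/-, 1.43 in Dll1-/- and 1.45 in WT, a difference of 0.21 ± 0.20, which was -0.56 under E1A scaling. Of the 6 genes of chromosome structure and growth, 5 were lower in Rbpj-/- than in WT by at least 0.32. Top2a, the topoisomerase that untangles sister chromatids, stood at -0.72 in Rbpj-/-, 0.02 in Dll1-/- and -0.02 in WT, a difference of -0.70 ± 0.22, or 1.63-fold lower. Mki67, the proliferation marker that coats mitotic chromosomes, stood at 2.93 in Rbpj-/-, 3.31 in Dll1-/- and 3.41 in WT, a difference of -0.48 ± 0.14, with -0.52 and -0.44 from its 2 probes. In both genes the Rbpj-/- array was the lowest and the other arrays lay close together.

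The condensin genes, whose products compact mitotic chromosomes, differed among themselves. Ncaph and Ncapd2, subunits of condensin I, had -0.43 ± 0.20 and -0.32 ± 0.20 for Rbpj-/- against WT. Smc2, a core ATPase of condensin, stood at 1.91 in Rbpj-/-, 2.69 in Dll1-/- and 2.25 in WT. Smc4, its partner ATPase, stood at 6.41 in Rbpj-/-, 6.11 in Dll1-/- and 6.14 in WT. Smc2 was thus lower and Smc4 higher in Rbpj-/- than in WT, by -0.34 ± 0.20 and 0.27 ± 0.20, while under E1A scaling Smc4 was also lower, at -0.50.

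**Figure D2:**
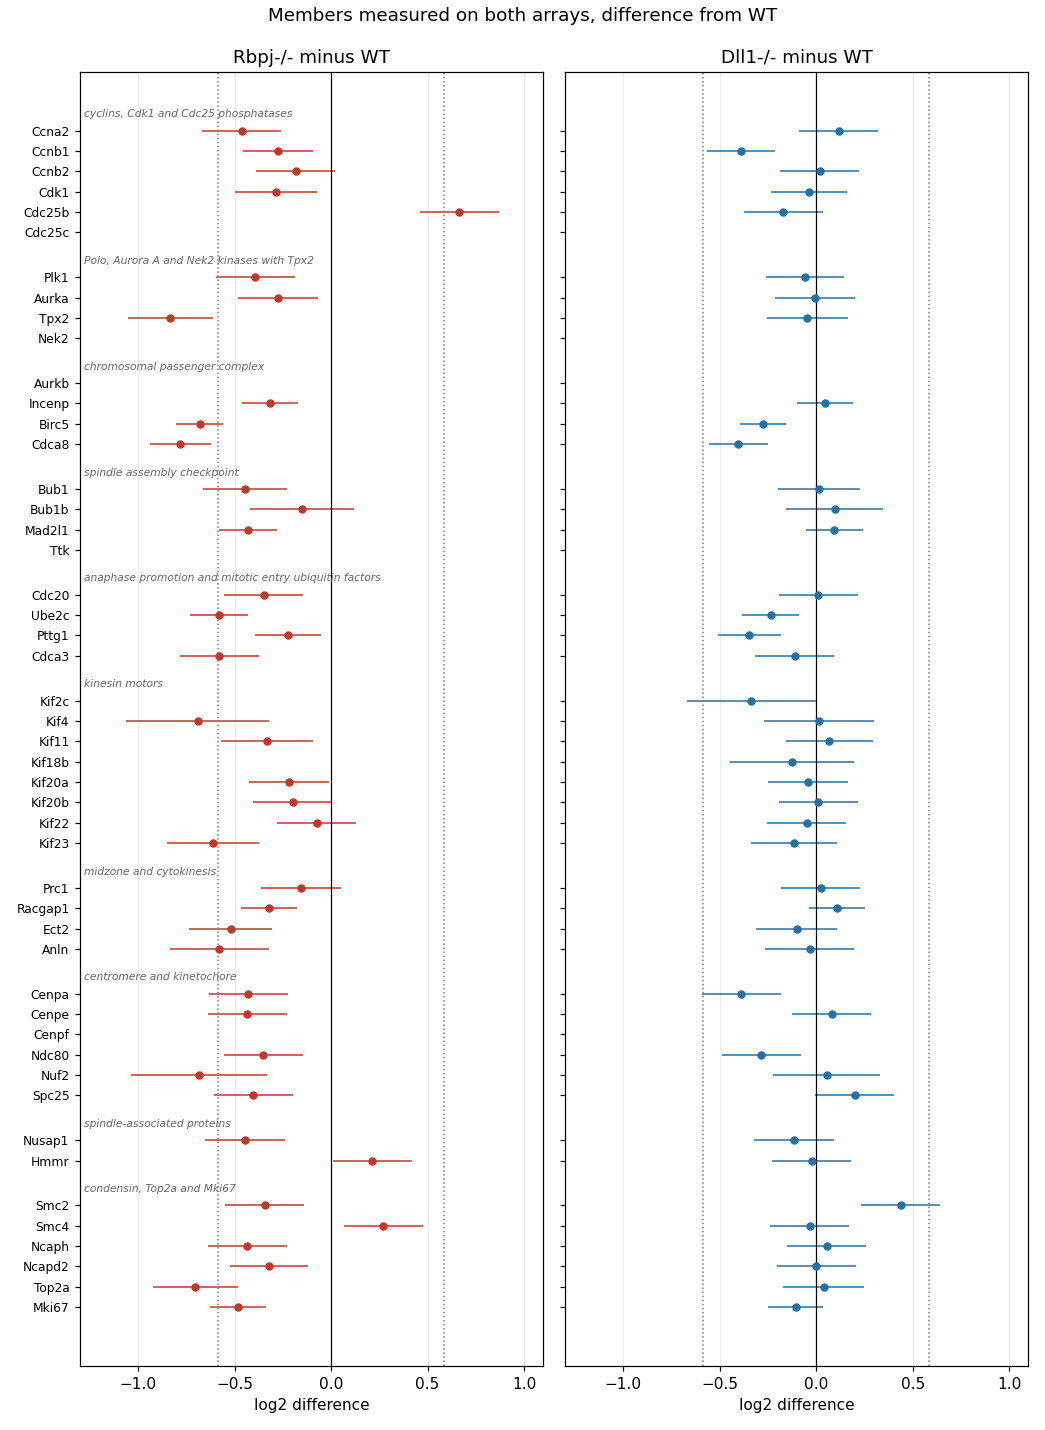
Log2 difference from WT for each gene measured on both arrays, Rbpj-/- minus WT on the left and Dll1-/- minus WT on the right, in the same role groups. Bars are 1 software SE to each side and dotted lines mark 1.5-fold. On the left 7 genes lie beyond the lower line and only Cdc25b beyond the upper one (Cdc25b, Hmmr and Smc4 fall below 0 under E1A scaling), and on the right no gene passes either line.

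In Dll1-/- cells the mitosis genes lay around their WT values. Of 43 genes measured on both arrays 24 were lower and 19 higher, where 55.7% of all 11818 genes measured on both arrays were lower. The median difference was -0.03, the same as over all genes. Lower by at least 0.32 were 5 of the 43, against 8.57% of all genes, and 1 was higher by at least 0.32, against 7.79%. None reached 1.5-fold, which 2.3% of all genes did downward and 1.95% upward. The members' shares lie close to those of all genes. Under E1A scaling, where the all-gene median was -0.26, 42 of the 43 were below WT, as were 87.6% of all genes.

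The 5 lowest members in Dll1-/- against WT were Cdca8 at -0.40 ± 0.15, Ccnb1 at -0.39 ± 0.18, Cenpa at -0.39 ± 0.21, Pttg1 at -0.35 ± 0.17 and Kif2c at -0.34 ± 0.34. They come from 5 different role groups. The Ccnb1 mean again hides a split, with -0.79 from its dimmer probe and 0.01 from its brighter one, and for Pttg1 the dimmer probe gave -0.52 and the brighter one -0.17. The highest was Smc2 at 0.44 ± 0.20, or 1.35-fold higher, and it stayed higher under E1A scaling, at 0.20. Next came Spc25 at 0.20, Ccna2 at 0.12, Racgap1 at 0.11 and Bub1b at 0.09, each within 1 software SE of 0 and each below 0 under E1A scaling. The Mad2l1 mean was also 0.09, over 3 probes that ran from -0.29 to 0.65. Birc5, at -0.28 ± 0.12, was with Cdca8, Ccnb1, Pttg1 and Smc2 among the 5 of 43 members whose difference was larger than 2 software SE. That count too was made for the members only. Nek2, well above background in Dll1-/- only, read 0.21 ± 0.41 higher there than in WT, which is within its SE.

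Set against each other, Rbpj-/- cells had lower levels of most mitosis genes than Dll1-/- cells. Of 41 measured genes 36 were lower, against 55.1% of all 11800 genes, and the median was -0.36, against -0.03 over all genes. Lower by at least 0.32 were 26 of the 41, where 15.2% of all genes were, and at least 1.5-fold lower were 6, where 6.35% were. These were Tpx2 at -0.79 ± 0.22, Smc2 at -0.78 ± 0.20, Top2a at -0.74 ± 0.22, Nuf2 at -0.74 ± 0.34, Kif4 at -0.71 ± 0.36 and Spc25 at -0.60 ± 0.20. Smc2 comes second here because its level was lowest in Rbpj-/- and highest in Dll1-/-, with WT between them. The 5 members above 0 were Cdc25b at 0.83 ± 0.20, Smc4 at 0.30 ± 0.20, Hmmr at 0.24 ± 0.20, Pttg1 at 0.12 ± 0.17 and Ccnb1 at 0.12 ± 0.19. Cdc25b also stayed above 0 under E1A scaling, at 0.30, while Smc4, Hmmr, Pttg1 and Ccnb1 were at -0.23, -0.30, -0.41 and -0.42. Each pair of these comparisons shares an array, and so the 3 sets of values are not separate evidence.

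The middle of the list depended on how the arrays were scaled. For Rbpj-/- against WT the all-gene median was -0.07 with the 75th percentile as the zero, -0.24 with the array median and -0.84 with the median of 8 E1A spike-in probes. The members' median was -0.39, -0.56 and -1.16 in the same settings, so it stood at -0.32 relative to all genes in each. That distance is fixed by construction, since each of these scalings subtracts 1 constant from an array. Over all settings, with other filters and normalizations included, it ran from -0.44 to -0.26. The E1A probes read spike-in RNAs, which are meant to be added in equal amount to each labelling. On the 75th-percentile scale 7 of the 8 E1A probes read higher in Rbpj-/- than in WT and 1 read lower, at -0.63, and the median over the 8 was 0.74. How far the spike-in readings reflect the RNA of the cells or the labelling was not tested.

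**Figure D3:**
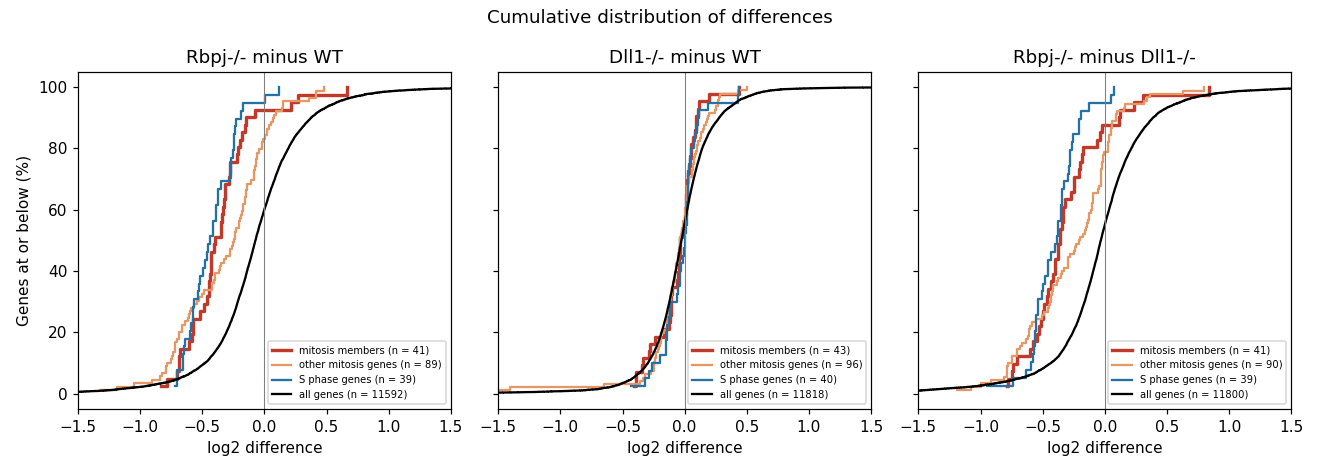
Cumulative share of genes at or below each log2 difference, for the mitosis genes described (red), other mitosis genes (orange), S phase genes (blue) and all measured genes (black), in the 3 comparisons. In both comparisons with Rbpj-/- as the first array the red, orange and blue curves cross 50% to the left of the black one. The red medians are at -0.39 and -0.36. In Dll1-/- minus WT all 4 curves cross 50% near 0. On the E1A scale all curves shift to the left.

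The members' differences were alike in the upper and the lower rows of the array. All 3 arrays lie on 1 slide with 1 scan time, per the file headers. Member probes well above background on all arrays had a median of -0.39 for Rbpj-/- against WT in the rows above the middle (28 probes) and of -0.41 in the rows below it (24 probes), with all probes at -0.05 in both. In the repeated Bub1 probe, 3 spots of the upper rows averaged -0.38 and 4 spots of the lower rows -0.45. Members below the list's middle brightness had a median of -0.46 and brighter ones of -0.32, whereas all genes split at the same brightness had 0.00 and -0.12.

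**Figure D4:**
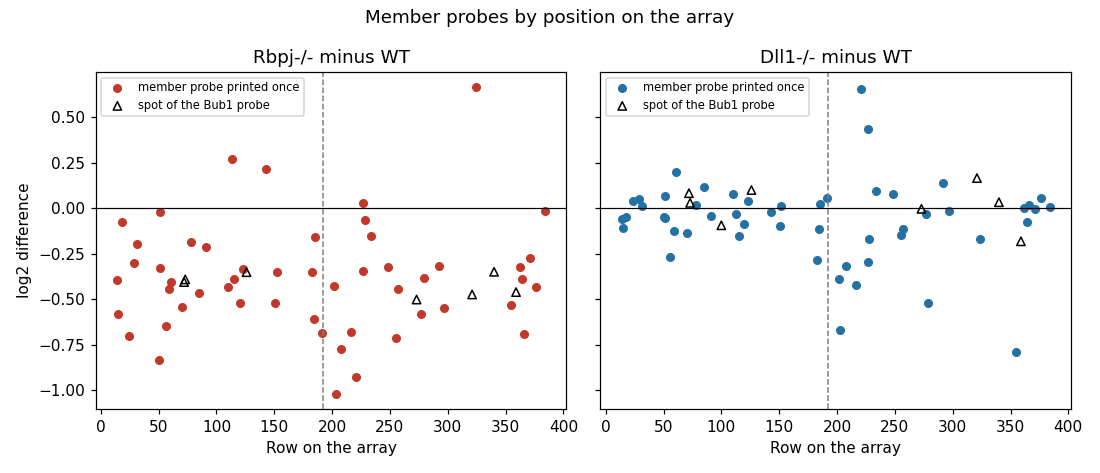
Log2 difference of member probes by their row on the array, Rbpj-/- minus WT on the left and Dll1-/- minus WT on the right, for probes well above background on all arrays and printed once. Triangles are repeated spots of the Bub1 probe and the dashed line is the middle of the array. On the left the medians of the upper and lower rows are -0.39 and -0.41, and on the right -0.04 and -0.06.

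Many promoters of mitosis genes are known to hold a short element called the cell cycle genes homology region (CHR), bound by the DREAM complex in resting cells and by B-Myb and FoxM1 complexes in dividing ones, often with CCAAT boxes upstream that bind the factor NF-Y. RefSeq promoters of build GRCm38.p6, running from 250 bases before to 50 after the start, were found for 41 of the 48 genes. Some genes have several such promoters, and a gene was counted where any of them held a match. The CHR core TTTGAA, or its reverse complement TTCAAA, was in 73.2% of those 41 genes and in 20.2% of all 27025 genes with a promoter. The CCAAT box (CCAAT or ATTGG) was in 75.6% and in 41.1%, and both together in 63.4% and in 7.97%. A variant of the core, TTCGAA, which is its own reverse complement, was in 9.76% and in 1.80%. In the 250 upstream bases alone the CHR core was in 31.7% of the members and in 18.3% of all genes, a smaller gap than in the full window. Of the 42 matches in members 31 (73.8%) lay within 50 bases of the start, a window chosen after the positions were seen, against 25.3% of the matches in all promoters. Overlapping promoters of the same gene, as in Ect2 and Prc1, count a site more than once among these matches. The letters of the elements are all that was searched, and a match is not a shown binding site.

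The promoters below, from 100 bases before to 30 after the start, are shown because they set members with lower levels in Rbpj-/- beside 2 that were not lower on the 75th-percentile scale. They were picked after the differences and matches were known. Capitals mark the CHR core or its variant and the CCAAT boxes, on either strand. In Cdca8 the core and a CCAAT box overlap by a base.
Top2a (chr11:99024160-99024289, minus strand): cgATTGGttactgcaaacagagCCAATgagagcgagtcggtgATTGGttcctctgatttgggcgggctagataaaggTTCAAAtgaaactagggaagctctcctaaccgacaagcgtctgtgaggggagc
Cdca8 (chr4:124936888-124937017, minus strand): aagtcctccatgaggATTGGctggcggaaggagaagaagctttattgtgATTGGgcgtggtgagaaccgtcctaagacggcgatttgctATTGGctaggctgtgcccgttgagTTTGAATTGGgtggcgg
Ube2c (chr2:164769829-164769958, plus strand): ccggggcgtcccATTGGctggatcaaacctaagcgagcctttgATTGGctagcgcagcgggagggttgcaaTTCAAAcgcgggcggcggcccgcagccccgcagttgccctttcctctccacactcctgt
Cdc20 (chr4:118437314-118437443, minus strand): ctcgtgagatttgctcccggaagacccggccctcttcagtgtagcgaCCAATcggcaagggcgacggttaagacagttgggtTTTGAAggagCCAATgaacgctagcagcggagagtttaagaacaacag
Ccnb2 (chr9:70421525-70421654, minus strand): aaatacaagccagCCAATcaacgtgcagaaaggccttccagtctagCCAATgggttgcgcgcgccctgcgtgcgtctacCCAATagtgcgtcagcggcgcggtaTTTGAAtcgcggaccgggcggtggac
Hmmr (chr11:40733408-40733537, minus strand): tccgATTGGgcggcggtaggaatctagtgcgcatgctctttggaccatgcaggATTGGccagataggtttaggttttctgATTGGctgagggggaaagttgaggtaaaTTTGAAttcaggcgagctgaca
Cdc25b (chr2:131186848-131186977, plus strand): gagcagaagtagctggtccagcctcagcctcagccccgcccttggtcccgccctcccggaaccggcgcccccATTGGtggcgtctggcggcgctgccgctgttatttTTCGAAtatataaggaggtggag

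Members with and without the CHR core had differences of like size. The 26 measured members with a CHR core had a median difference between Rbpj-/- and WT of -0.35, from -0.78 (Cdca8) to 0.21 (Hmmr). The 10 without it had a median of -0.43, from -0.69 to 0.66 (Cdc25b). Hmmr and Cdca8, at the ends of the first range, both carry a CHR core at the start and CCAAT boxes upstream, and Cdc25b carries the variant and 1 CCAAT box in the stretch shown.

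Genes of the same processes outside the list were read for comparison, from 6 further lists of mitosis genes. In Rbpj-/- against WT 74 of 89 measured genes were lower, where 60.2% of all genes were, and 25 were at least 1.5-fold lower, where 6.97% of all genes were. Their median was -0.24. The 2 lowest of the measured genes, Espl1 and Spc24, lay below every measured member, as did Mastl, Psrc1 and Gtse1, which are given below. Genes of these lists that were not well above background on both arrays were not ranked and may lie lower. Espl1 (separase), which cuts cohesin at anaphase, stood at -2.88 in Rbpj-/-, -1.80 in Dll1-/- and -1.55 in WT, a difference of -1.32 between Rbpj-/- and WT. Spc24, the NDC80 subunit next to Spc25, stood at -0.99 in Rbpj-/-, 0.01 in Dll1-/- and 0.19 in WT, a difference of -1.19. For both the Rbpj-/- array lay apart from the others.

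The remaining named genes of those lists, taken as the largest differences either way in each, were mostly lower in Rbpj-/- than in WT. They were Cenpi of the inner kinetochore at -0.82, the spindle proteins Psrc1 at -0.91 and Gtse1 at -0.84, the midbody protein Shcbp1 at -0.74, Arhgap11a at -0.37 and Cdca2, which brings a phosphatase to chromatin, at -0.79. Of the regulators, the kinase Mastl was at -1.05, with a dim signal that was also low in Dll1-/- (-1.41 against WT), the cyclin Ccnf at -0.72 and the anaphase-promoting complex inhibitor Fbxo5 at -0.42. Cdc27, a core subunit of that complex, was the exception at 0.48, and was -0.15 in Dll1-/- against WT. In Dll1-/- against WT the same 6 lists had a median of -0.04 over 96 genes, with 54 lower, where 55.7% of all genes were.

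Genes of DNA replication, which act in S phase, ahead of G2 and mitosis, were also mostly lower. Of 39 measured S phase genes 37 were lower in Rbpj-/- than in WT, with a median of -0.44, and 9 were at least 1.5-fold lower, beside the same 60.2% and 6.97% of all genes. Pold2, a subunit of DNA polymerase delta, had -0.72 and Fen1, the nuclease that trims Okazaki fragments, had -0.70. In Dll1-/- against WT the median of 40 genes was 0.00. The mitosis genes and the S phase genes were not tested against each other, and each list's values come from the same arrays.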

How the data were processed

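The authors deposited 3 Agilent scanner files whose processed signals are linear intensity values, with background subtracted by Feature Extraction 10.7.1.1, per the file headers (10.7 per the submitters' processing notes). The authors' deposited table of the series gives log2 values. Once a constant was taken off each array (0.0023 in Rbpj-/-, 0.0062 in Dll1-/- and 0.0065 in WT), they lay within 0.01 of the levels used here for 100% of probes. The scale and direction of that table are thus known, and it is centred close to each array's 75th percentile (column medians -3.28 for Rbpj-/-, -3.40 for Dll1-/- and -3.44 for WT). Each array held 62976 spots, 59305 of them not controls. Outlier spots were left out (139 in Rbpj-/-, 163 in Dll1-/- and 143 in WT) and 0 were saturated. Spots were averaged to 55678 probes, of which 27507 matched 20886 genes through accessions in RefSeq's gene table of GRCm38.p6. Probes that cleared background on at least 1 array were averaged for each gene, which left 13161 genes. A difference is counted where the gene was well above background on both arrays. A bound sets the bright level against a floor on the dim array: its lowest signal that cleared background, or the probe's own signal where that is higher. No error is carried into a bound. The number of arrays limits the precision. Over probes printed repeatedly, the SD between spots had a median of 0.07, 0.06 and 0.06 log2 in Rbpj-/-, Dll1-/- and WT.

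The members and gene lists were chosen with earlier results of these data known. Every member is named, the others being the 2 largest differences between Rbpj-/- and WT in each list and the 5 genes nearest to the members. Alternatives changed the scaling, background correction (normexp, offset 50, limma 3.58.1 in R 4.3.3, on the median spot intensity in place of the planned mean), the filter, the rows and the probe summary. The steps were tested on simulated data in Python 3.11.15. 1 B-cell marker and the sum over that list are not reported here.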

Additional observations from a re-analysis of the deposited data

How the results depend on the processing

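No paired analysis was possible because each group has 1 array, and for the same reason no replicate could be left out. No median of the members changed its sign, but single members did. Under E1A scaling 3 of 41 turned in Rbpj-/- minus WT (Cdc25b to -0.11, Hmmr to -0.56 and Smc4 to -0.50), 18 of 43 in Dll1-/- minus WT and 4 of 41 in Rbpj-/- minus Dll1-/-. With the mean of the E1A spots Cdc25b was at 0.08. Kif22 and Pttg1 in Rbpj-/- minus WT were at 0.02 and 0.01 after normexp with quantile normalization, which turned 10 of 43 in Dll1-/- minus WT, and the array median turned 8 of those 43. Scaled to each array's median, the members at least 1.5-fold lower numbered 19 in Rbpj-/- minus WT (12.5% of all genes) and 13 in Rbpj-/- minus Dll1-/- (9.16%). Scaled to the E1A probes, the medians of the members, the other mitosis genes and the S phase genes were -1.16, -1.01 and -1.21 in Rbpj-/- minus WT and -0.90, -0.74 and -0.92 in Rbpj-/- minus Dll1-/-, and the members at least 1.5-fold lower numbered 38 and 34, where 79.5% and 47.3% of all genes were called. In Dll1-/- minus WT 42 members were then lower (87.6% of all genes), 3 of them by 1.5-fold (7.24%). The E1A scaling was first computed with the mean over all E1A spots. It was changed to the median of the 8 probes after 1 probe was seen to run against the rest. With the mean, the same medians were -0.98, -0.83 and -1.03 in Rbpj-/- minus WT and -0.78, -0.62 and -0.80 in Rbpj-/- minus Dll1-/-. Members at least 1.5-fold lower then numbered 38 and 33 (60.2% and 29.7% of all genes), and 41 were lower in Dll1-/- minus WT (82.4%). After normexp with quantile normalization 36 and 35 of 41 were still lower in Rbpj-/- minus WT and Rbpj-/- minus Dll1-/-, where 47.7% and 45.6% of all genes were. The counts at 1.5-fold were then 0 in Rbpj-/- minus WT (2.36% of all genes) and 1 in Rbpj-/- minus Dll1-/- (3.21%). Without a filter on dim probes, which adds values at background, they were 14 and 10 (8.09% and 8.01% of all genes), and 3 in Dll1-/- minus WT (5.97%). The lower rows of the array hold 19 of the members, so fewer genes are counted. Of these 18 were lower in Rbpj-/- minus WT (60.6% of all genes), 4 by 1.5-fold (6.59%). In Dll1-/- minus WT 11 were lower (56.2%), 1 by 1.5-fold (1.64%). In Rbpj-/- minus Dll1-/- 16 were lower (55.4%), 2 by 1.5-fold (6.05%). The upper rows had 25 of 27 lower in Rbpj-/- minus WT (60.1%). In the 250 upstream bases alone the CHR core was in 31.7% of the members and 18.3% of all genes, and the core with a CCAAT box in 29.3% and 6.45%. The cause of the other moves was not tested. Relative to the all-gene median, the members' median ran over all settings from -0.44 to -0.26 in Rbpj-/- minus WT, from -0.49 to -0.22 in Rbpj-/- minus Dll1-/- and from -0.02 to 0.08 in Dll1-/- minus WT. Dim members have the larger error, and the 3 members at background on every array could not be compared.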

Other observations

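Transcription factors and cofactors that act on G2 and M phase genes were measured for 19 genes on all arrays. Their median in Rbpj-/- against WT was -0.08, with 14 lower, 5 of them by at least 0.32. Over all genes the median was -0.07, with 60.2% lower and 18.7% by at least 0.32. In Dll1-/- against WT its median was 0.04, with 7 lower, where 55.7% of all genes were. Foxm1, an activator of mitosis genes, stood at -0.85 in Rbpj-/-, -0.29 in Dll1-/- and -0.36 in WT, a difference of -0.49 between Rbpj-/- and WT. E2f1, an activator of S phase genes, stood at 0.95 in Rbpj-/-, 1.56 in Dll1-/- and 1.54 in WT, a difference of -0.59 between Rbpj-/- and WT. Both had their lowest level on the Rbpj-/- array.

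By their 2 differences from WT, the genes closest to the members' medians (-0.39 in Rbpj-/- and -0.02 in Dll1-/-) among 10203 genes that are not members were Jund, Wdr46, Seh1l, Ppp3ca and Wsb2. All 5 lay within 0.02 of that point in log2 units.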
